A study of Ovis aries with 16 samples.

Results

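TST and the enzymes that make and oxidise hydrogen sulfide were followed in peripheral lung of newborn lambs with a shunt between the aorta and the pulmonary artery. The genes were TST, MPST, CBS, CTH, ETHE1, SQOR and SUOX, and every probe set that the platform annotation gives to exactly 1 of these symbols was taken. CTH had no such probe set, so 6 of the 7 genes were followed, out of 9155 genes with a symbol, through 8 of 24016 probe sets. TST had 3 probe sets, called here the _s_at, the _at and the dim TST probe set, and each other gene had 1. TST was picked because its brightest probe set passed the threshold in the comparison of shunt with control lung, and the other enzymes as enzymes of the same sulfur metabolism. The shunt minus control values of all 8 are therefore a description of these arrays and carry no test of their own.

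The shunt group comprised 8 lambs whose fetal surgery joined the ascending aorta to the main pulmonary artery through a graft with a width of 8.0 mm and a length of 2 mm, a model of congenital heart disease with raised pulmonary blood flow. The control group comprised 8 lambs that had sham surgery. Per the labels' protocols, surgery took place 9 ± 6 days before term in both groups, and lungs were taken at 3 days of age. Strain and sex were not used here, and each of the 16 arrays was taken as 1 lamb. Sheep cRNA was hybridized to bovine probe sets, and levels are log2 values after robust multi-array averaging (RMA).

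Hydrogen sulfide is a gas made from cysteine that relaxes blood vessels at low concentration and blocks cytochrome c oxidase at high concentration. CBS and CTH of the transsulfuration pathway, and MPST, release it. In mitochondria SQOR oxidises it to a persulfide and passes the electrons to coenzyme Q, ETHE1 oxidises the persulfide to sulfite, SUOX turns sulfite into sulfate, and TST, also called rhodanese, moves sulfur between thiosulfate, glutathione and other acceptors. TST and MPST are paralogs, and they stand next to each other in the sheep annotation ARS-UI_Ramb_v3.0.

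The arrays correlated with each other at 0.980 to 0.995. Control replicate 2 had the lowest mean correlation with the other arrays, 0.983. Array medians were 7.135 ± 0.009 in shunt and 7.158 ± 0.016 in control (SD, n = 8 each, two-sided exact permutation p = 0.000777). With each array centred on its median, the difference of the brightest TST probe set was -0.45, beside -0.48 as deposited. The lung markers SFTPC, SFTPB and AGER were bright, with SFTPC at percentile 99.7 of all probe sets. No value of signal over background was used here, so a dim probe set cannot be told from an absent transcript.

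TST, the sulfurtransferase, was lower in 7 of 8 shunt lambs than in any control by both of its brighter probe sets, at 0.718-fold and 0.748-fold of the control level over all 8. The _s_at probe set, the brightest, ran from 11.03 through a median of 11.26 to 11.83 in shunt lambs, against 11.67, 11.75 and 11.91 in controls. Shunt replicate 1 was the lamb at 11.83, among the controls, and the other 7 shunt lambs, at 11.35 or less, lay below the lowest control. The means were 11.29 ± 0.24 in shunt and 11.77 ± 0.09 in control (SD, n = 8 each), a difference of -0.48 ± 0.09 (SE, 95% interval -0.66 to -0.30). In the limma fit over all probe sets its adjusted p was 0.0435, and it stood at place 13 of 24016 by p. TST was picked from this comparison.

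The _at probe set of TST is annotated to the same transcript and gave the same picture. Its values ran from 9.04 through 9.24 to 9.97 in shunt lambs, against 9.55, 9.75 and 9.996 in controls. Shunt replicate 1 again lay among the controls, at 9.97, and the other 7 shunt lambs, at 9.51 or less, lay below the lowest control. The difference in means was -0.42 ± 0.11 (SE, 95% interval -0.64 to -0.19), with an adjusted p of 0.147 in the limma fit. The pair may share probes, so they are not independent measurements of TST, and the suffix _s_at marks probes that match more than 1 transcript.

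The dim TST probe set lay at percentile 40.8 of all probe sets and is annotated through another sequence record. It ran from 6.53 through 6.63 to 6.76 in shunt lambs, against 6.41, 6.72 and 6.90 in controls, and the shunt values lay wholly inside the control range. The difference was -0.06 ± 0.06 (SE, 95% interval -0.19 to 0.06), and this interval does not reach the difference of either brighter TST probe set.

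**Figure D1:**
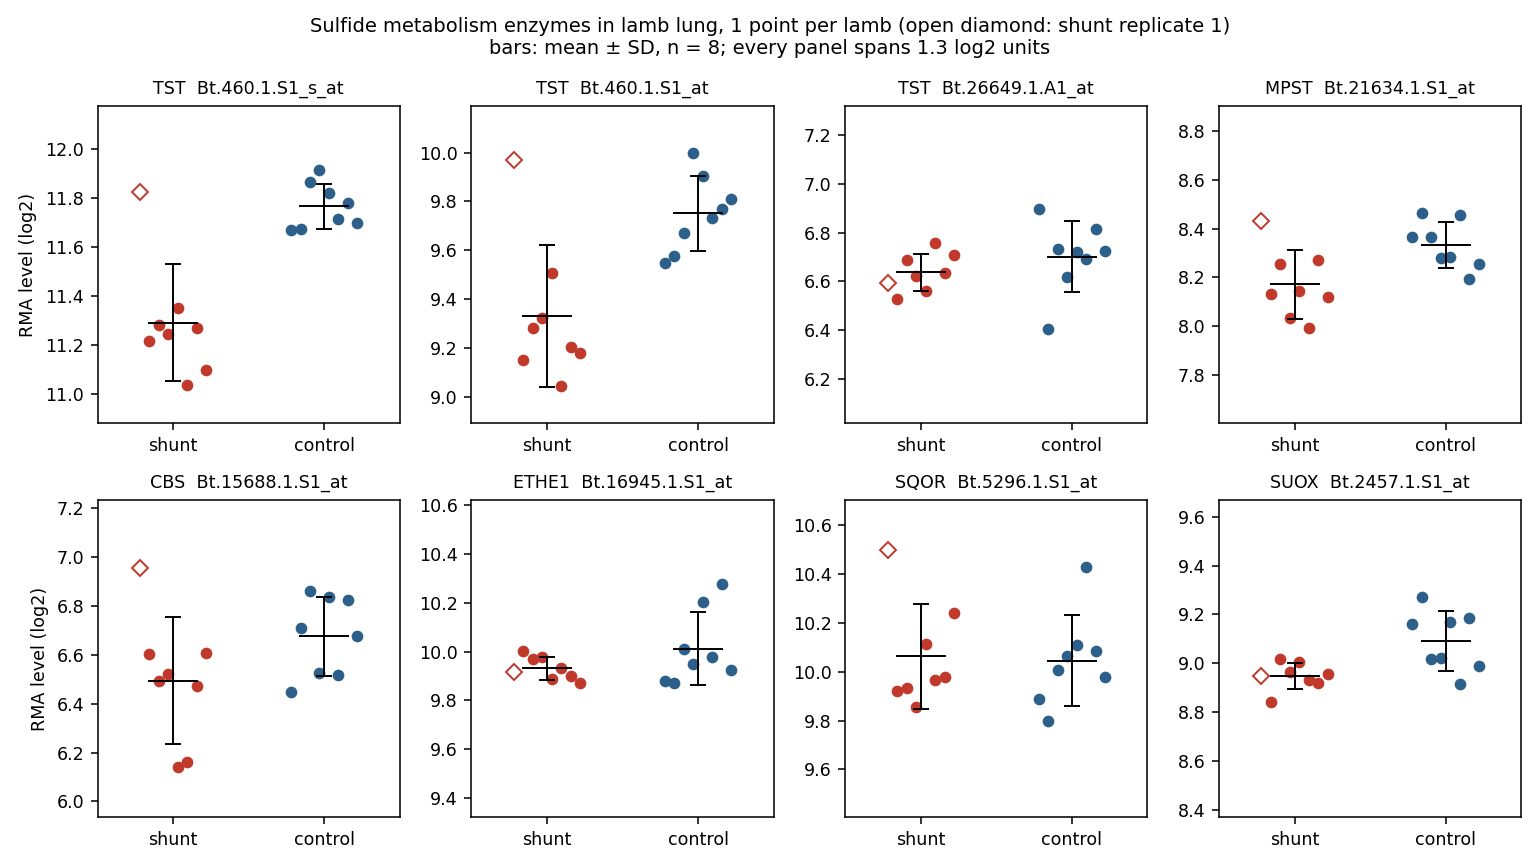
RMA level (log2, y axis) of the 8 probe sets in 8 shunt and 8 control lambs, 1 point per lamb, with the mean and SD as bars and shunt replicate 1 as an open diamond. Probe set identifiers stand above the panels. In both brighter TST probe sets 7 shunt lambs lie below all controls and shunt replicate 1 lies among them.

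Leaving out shunt replicate 1 moved the pair of brighter TST probe sets more than leaving out any other array did. The difference of the _s_at probe set was then -0.55 ± 0.06 (SE, 95% interval -0.68 to -0.43), or 0.681-fold, with means of 11.21 ± 0.11 in 7 shunt lambs and 11.77 ± 0.09 in 8 controls (SD). The _at probe set differed by -0.51 ± 0.08 (95% interval -0.67 to -0.35). By p in the limma fit these stood at places 1 and 7 of 24016, with adjusted p of 0.00052 and 0.0117. Shunt replicate 1 stands apart by its TST level itself, so the fit without it is not independent of TST. In the 16 fits that each left out 1 array, the difference of the brightest probe set lay between -0.55 and -0.44. As 7 of 8 shunt lambs lay below every control, leaving out 1 array could not reverse its direction. Its adjusted p stayed under 0.05 in 3 of these fits. These were the fits without shunt replicate 1 (0.00052), control replicate 6 (0.0415) or control replicate 8 (0.0451). In the other 13 it ran up to 0.112, reached without shunt replicate 3.

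Of the sulfide-making enzymes, MPST and CBS both averaged lower in shunt lung, with overlapping groups. MPST, which forms persulfides from mercaptopyruvate, ran from 7.99 through 8.14 to 8.43 in shunt lambs, against 8.19, 8.32 and 8.46 in controls. In 5 of 8 shunt lambs MPST lay below the lowest control, and shunt replicate 1 was again the highest. Its difference was -0.16 ± 0.06 (SE, 95% interval -0.29 to -0.03, limma adjusted p = 0.291), and -0.20 ± 0.06 without shunt replicate 1 (limma adjusted p = 0.154). With each array centred on its median it was -0.14 (limma adjusted p = 0.349).

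CBS, which joins homocysteine and serine in the first step of transsulfuration, ran from 6.14 through 6.51 to 6.96 in shunt lambs, against 6.45, 6.69 and 6.86 in controls. Shunt replicate 1 was above every control, and shunt replicates 5 and 6, at 6.14 and 6.16, were below every control. The difference was -0.18 ± 0.10 (SE, 95% interval -0.39 to 0.03, limma adjusted p = 0.423), and -0.25 ± 0.09 without shunt replicate 1 (limma adjusted p = 0.221). The CBS probe set was dim, at percentile 39.1.

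In the oxidation chain SQOR was close to 0 difference, and ETHE1 and SUOX averaged lower in shunt lung. SQOR, which takes the first step, ran from 9.85 through 9.97 to 10.50 in shunt lambs, against 9.80, 10.04 and 10.43 in controls, and its groups overlapped almost wholly. Its difference was 0.02 ± 0.09 (SE, 95% interval -0.18 to 0.21), and -0.04 ± 0.08 without shunt replicate 1, which had the highest SQOR of all 16 lambs. The interval leaves room for a difference of about 0.2 either way, so it does not show that SQOR was unaltered.

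ETHE1, the persulfide dioxygenase, ran from 9.87 through 9.92 to 10.001 in shunt lambs, against 9.87, 9.96 and 10.28 in controls. All shunt lambs lay inside the control range, and all 8 lay below the control mean, with control replicates 5 and 7 highest at 10.20 and 10.28. The difference was -0.08 ± 0.06 (SE, 95% interval -0.20 to 0.04).

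SUOX, the molybdenum enzyme that ends the chain, ran from 8.84 through 8.95 to 9.02 in shunt lambs, against 8.91, 9.09 and 9.27 in controls. Only shunt replicate 2 lay below the lowest control, though 8 of 8 shunt lambs lay below the control mean. How many of all probe sets had 8 of 8 shunt lambs on 1 side of the control mean was not counted. Such counts, for ETHE1, SUOX and the genes named below, are a description only. The difference was -0.14 ± 0.05 (SE, 95% interval -0.26 to -0.03, limma adjusted p = 0.273). It was -0.14 ± 0.06 (limma adjusted p = 0.266) without shunt replicate 1, which lay near the middle of its group at 8.95. With each array centred on its median it was -0.12 (limma adjusted p = 0.341).

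**Figure D2:**
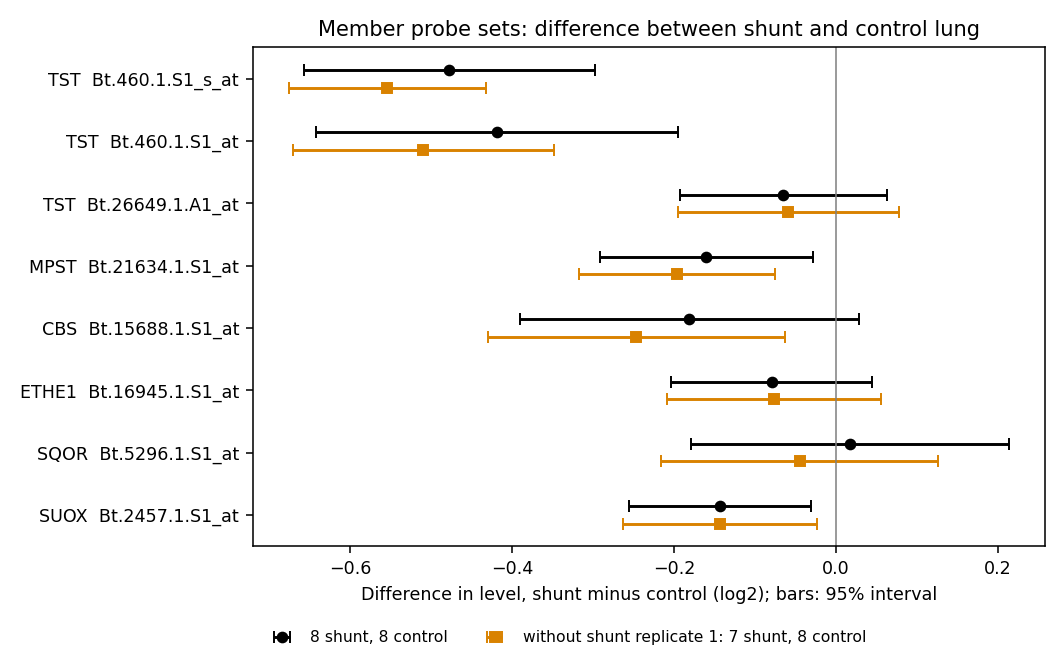
Difference in level, shunt minus control (log2, x axis), of the 8 probe sets with 95% intervals, from all 16 arrays (circles) and without shunt replicate 1 (squares). The 2 brighter TST probe sets lie at -0.48 and -0.42, and the other 6 between -0.18 and 0.02.

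In all, 7 of the 8 probe sets had a negative difference, where 55.1% of all probe sets did, and the median difference was -0.15 over the members and -0.01 over all probe sets. At an adjusted p under 0.05 the limma fit called 1 of the 8 lower, against 0.00416% of all probe sets, which is that TST probe set alone, and 0 of the 8 higher, against 0.0666%. At an unadjusted p under 0.05 it called 4 of the 8 lower, against 7.32%, and 0 higher, against 6.42%. These 4 were the pair of brighter TST probe sets, MPST and SUOX. With each array centred on its median, the unadjusted calls over all probe sets were 2184 higher and 1045 lower, in place of 1543 higher and 1759 lower. Without shunt replicate 1, 2 of the 8 were called lower and 0 higher at an adjusted p under 0.05, against 0.0916% and 0.221% of all probe sets. At an unadjusted p 5 of the 8 were lower and 0 higher, against 7.68% and 6.81%, the added gene being CBS. Shunt and control values of 0 of the 8 probe sets were free of overlap, against 0.075% of all probe sets with every shunt lamb lower. Without shunt replicate 1 the pair of brighter TST probe sets was, against 0.233%. Since TST was chosen from this comparison, these shares do not set the members apart.

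TST was picked by a p that rests on its spread within the groups as well as on the difference, so the levels within a group are not independent of that choice. The brightest TST probe set was set against the other 7 probe sets within each group, in 14 correlations with exact two-sided permutation p-values, adjusted over the 14. In shunt lambs it followed the _at probe set of TST, with r = 0.97 (exact permutation p = 0.000595, adjusted p = 0.00833) and rho = 0.90 (exact permutation p = 0.00456, adjusted p = 0.0639), n = 8. Without shunt replicates 1 and 6, the arrays farthest from the TST median, rho was 0.77 and r was 0.73 (n = 6, exact permutation p = 0.128, adjusted p = 0.358). In control lambs r was 0.70 (n = 8, exact permutation p = 0.0585, adjusted p = 0.273) and rho 0.69 (exact permutation p = 0.0694, adjusted p = 0.324), and r was 0.83 without control replicates 3 and 4. This pair is annotated to the same transcript and may share probes. Its correlation is therefore a check of the probe sets and not a relation between genes. For the dim TST probe set the values were r = -0.49 (exact permutation p = 0.222, adjusted p = 0.517) and rho = -0.52 in shunt, and r = 0.01 (exact permutation p = 0.983, adjusted p = 0.983) and rho = -0.19 in control lambs.

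MPST, the neighbour and paralog, correlated with TST among shunt lambs short of the adjusted threshold. There r was 0.84 (n = 8, exact permutation p = 0.00957, adjusted p = 0.067) and rho 0.83 (exact permutation p = 0.0154, adjusted p = 0.108), and without shunt replicates 1 and 6 r was 0.30 and rho 0.60. In control lambs r was -0.41 (n = 8, exact permutation p = 0.301, adjusted p = 0.576) and rho -0.29 (exact permutation p = 0.501, adjusted p = 0.701). The difference between the groups' correlations was not tested. For SQOR in shunt lambs r was 0.70 (n = 8, exact permutation p = 0.085, adjusted p = 0.297) and rho 0.36 (exact permutation p = 0.389, adjusted p = 0.606), and without shunt replicates 1 and 6 r was -0.40 and rho 0.03. CBS had r = 0.64 (n = 8, exact permutation p = 0.107, adjusted p = 0.299) but rho = 0.05 (exact permutation p = 0.935, adjusted p = 0.935) in shunt lambs, and r = -0.80 and rho = -0.94 without those arrays. The other 6 correlations with CBS, SQOR, ETHE1 and SUOX had r between -0.25 and 0.40, with Pearson adjusted p from 0.576 to 0.928. Their rho lay between -0.17 and 0.64, with Spearman adjusted p from 0.337 to 0.810. In control lambs rho was 0.64 with ETHE1, 0.55 with SQOR and 0.50 with CBS. The highest r of the 6, with ETHE1 in control lambs, was 0.94 without control replicates 3 and 4 (n = 6, exact permutation p = 0.0167, adjusted p = 0.233).

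**Figure D3:**
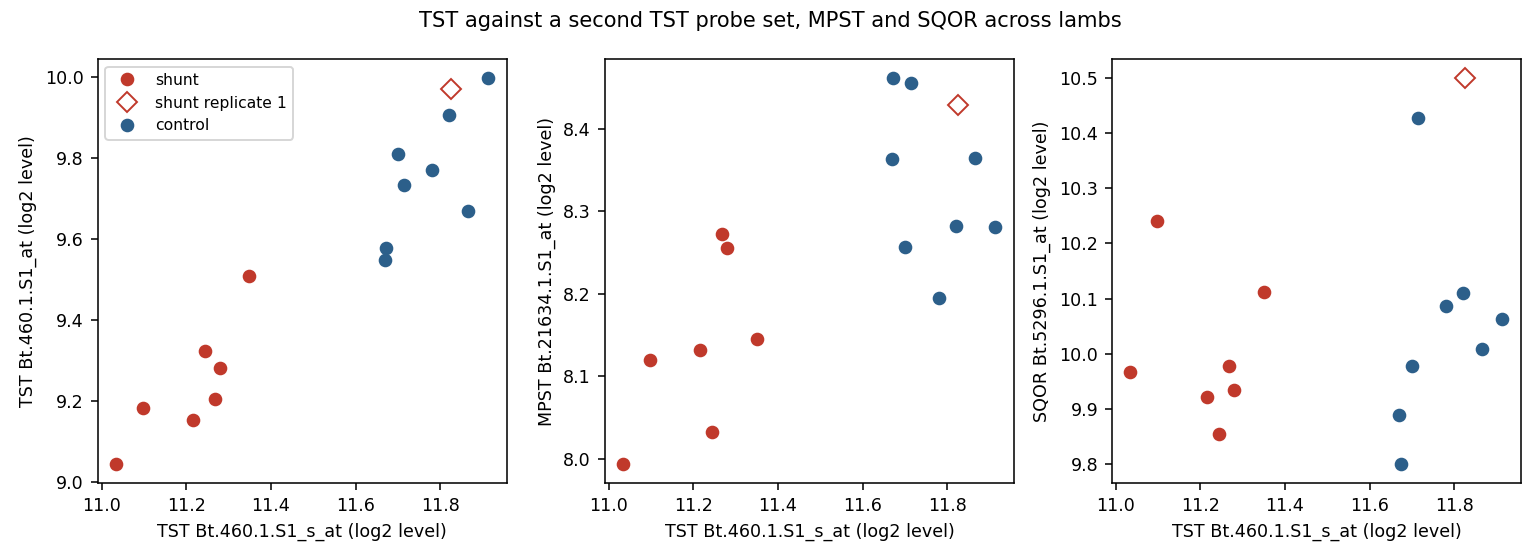
Level of the brightest TST probe set (log2, x axis) against the _at probe set of TST, MPST and SQOR (log2, y axes) in 8 shunt and 8 control lambs, with shunt replicate 1 as an open diamond. With the _at probe set r was 0.97 in shunt and 0.70 in control lambs, the second of which missed the adjusted threshold. In shunt lambs r was 0.84 with MPST and 0.70 with SQOR, against 0.30 and -0.40 without shunt replicates 1 and 6.

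Over all 16 arrays, after each group's mean was subtracted, the 5 probe sets with 1 symbol most like the brightest TST probe set were the _at probe set of TST (r = 0.91, rho = 0.82) and those of MVD (r = 0.89, rho = 0.81), DMAP1 (r = 0.88, rho = 0.83), TTLL4 (r = 0.88, rho = 0.71) and ATOSB (r = 0.87, rho = 0.69). MVD is the decarboxylase of the mevalonate pathway to cholesterol, DMAP1 is a chromatin protein that binds a DNA methyltransferase, and TTLL4 adds glutamate chains to proteins. The 3 least like it were C1H21orf62 (r = -0.79), CRHBP, which binds corticotropin-releasing hormone (r = -0.79), and RPA2, a subunit of the single-stranded DNA binding complex (r = -0.78). These were picked as the extremes of all probe sets with a symbol and have no test. Without shunt replicate 1 the r of MVD was 0.68, of DMAP1 0.75, of TTLL4 0.71 and of ATOSB 0.67. Shunt minus control was -0.11 for MVD, -0.12 for DMAP1, -0.04 for TTLL4 and 0.03 for ATOSB, beside -0.48 for TST.

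The other genes of sulfur metabolism and of mitochondria around these enzymes were read from 8 lists with 114 genes, of which 83 were measured, through 112 probe sets. In limma 0 of the 112 passed an adjusted p of 0.05 in either direction, against 0.0666% of all probe sets higher and 0.00416% lower. By the unadjusted p 7 were higher and 7 lower at 0.05, against 6.42% and 7.32% of all probe sets. The median difference was -0.03 over the 112 and -0.01 over all probe sets, and 78 of the 112 were negative, where 55.1% of all probe sets were. With each array centred on its median, 63 of the 112 were negative, where 46.2% of all probe sets were, and the median was -0.01 over the 112 and 0.01 over all. By the unadjusted p 10 were then higher and 5 lower, against 9.09% and 4.35% of all probe sets. The medians of the 8 lists lay between -0.07 and -0.01 as deposited and between -0.04 and 0.02 after centring.

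Among sulfide sources, sulfate activation and paralogs of the oxidation enzymes (13 probe sets, median -0.03) lay the lowest and the highest difference of the 8 lists. SELENBP1, the methanethiol oxidase, which releases hydrogen sulfide, averaged 11.27 in shunt and 11.64 in control, a difference of -0.37 ± 0.10 (SE, limma adjusted p = 0.174), with 8 of 8 shunt lambs below the control mean. Without shunt replicate 1 it was -0.40 (adjusted p = 0.0875). PAPSS1, which makes the activated sulfate used for sulfation, averaged 9.63 in shunt and 9.30 in control, a difference of 0.34 ± 0.09 (SE, limma adjusted p = 0.188), with 8 of 8 shunt lambs above the control mean. COQ2, an enzyme of coenzyme Q synthesis, was at 0.18 by one probe set and -0.07 by the other, and AOX1, a molybdenum oxidase, was at -0.14.

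Sulfur relay, molybdenum cofactor and iron-sulfur genes had 13 of 15 probe sets negative and a median of -0.07, or 10 of 15 and -0.04 with each array centred on its median. MOCS1, which starts the synthesis of the cofactor that SUOX carries, was at -0.18 ± 0.06 (SE, limma adjusted p = 0.238) and -0.01 by its other probe set. CTU2, which adds sulfur to transfer RNA, was at -0.14, URM1, a sulfur carrier, at -0.09, and MOCOS, which sulfurates the cofactor of other oxidases, at -0.17. At an unadjusted p under 0.05 the limma fit called 2 lower, those of MOCS1 and CTU2, and 0 higher, against 7.32% and 6.42% of all probe sets, and after centring 1 lower and 0 higher, against 4.35% and 9.09%.

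The glutathione list (14 probe sets, 10 negative, median -0.05) had GGT1 at -0.23 ± 0.06 (SE, limma adjusted p = 0.181), with 8 of 8 shunt lambs below the control mean, a transpeptidase that cleaves glutathione, GGT7, of the same family, at -0.20, and OPLAH at -0.11 and -0.10. GGCT, which releases 5-oxoproline from gamma-glutamyl amino acids, was at 0.25 ± 0.10 (SE, limma adjusted p = 0.289), with 8 of 8 shunt lambs above the control mean. In the thioredoxin list (7 probe sets, median -0.02) TXNL1 was at 0.26 by one probe set and -0.02 by the other, mitochondrial TXN2 at -0.07, TXNRD3 at -0.06 and TXNRD2 at -0.05.

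The methionine cycle and one-carbon list had 9 of 17 probe sets negative and a median of -0.01, the same to this rounding as all probe sets. SHMT2, the mitochondrial serine hydroxymethyltransferase, was at -0.20 ± 0.07 (SE, limma adjusted p = 0.238) with 8 of 8 shunt lambs below the control mean. AHCYL2 was at 0.16, 0.10 and 0.02 by its 3 probe sets, and GNMT at -0.10 and -0.06. The AHCYL2 probe set at 0.10 had 8 of 8 shunt lambs above the control mean (limma adjusted p = 0.484). Such a count thus occurred at small differences too. It was also found, on 1 side or the other, for MOCS1 (-0.18), CTU2, CHAC2, TXNL1 (0.26), IDH3G, SDHD, COX6A1 (-0.34) and COX15 (0.19) of the 8 lists. For cysteine catabolism (8 probe sets, median -0.02) CDO1, the dioxygenase that competes for cysteine, was at -0.25 ± 0.13 (SE, limma adjusted p = 0.398) by its brighter probe set and 0.10 by one at percentile 11.6. KYAT3, a transaminase, was at -0.15, and SLC6A6, the taurine transporter, at -0.04.

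Other mitochondrial enzymes were read from the citric acid cycle and cytochrome c oxidase lists. TST was picked for its difference, so the size of their differences is not set against that of TST. The citric acid cycle list had 15 of 23 probe sets negative, a median of -0.03 and a range from -0.12 to 0.16. Its leading members were SDHD, an anchor subunit of succinate dehydrogenase (0.16 ± 0.06 SE, limma adjusted p = 0.258), DLD (0.16), IDH2 (-0.12) and PC (-0.09, and -0.11 and -0.07 by its other probe sets). Cytochrome c oxidase, the enzyme that sulfide inhibits, had a median of -0.05 over 15 probe sets, with the assembly factor COX15 at 0.25 and 0.19, the subunit COX6A1 at -0.34 by one probe set and -0.05 by the other, and COX8A at -0.10.

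**Figure D4:**
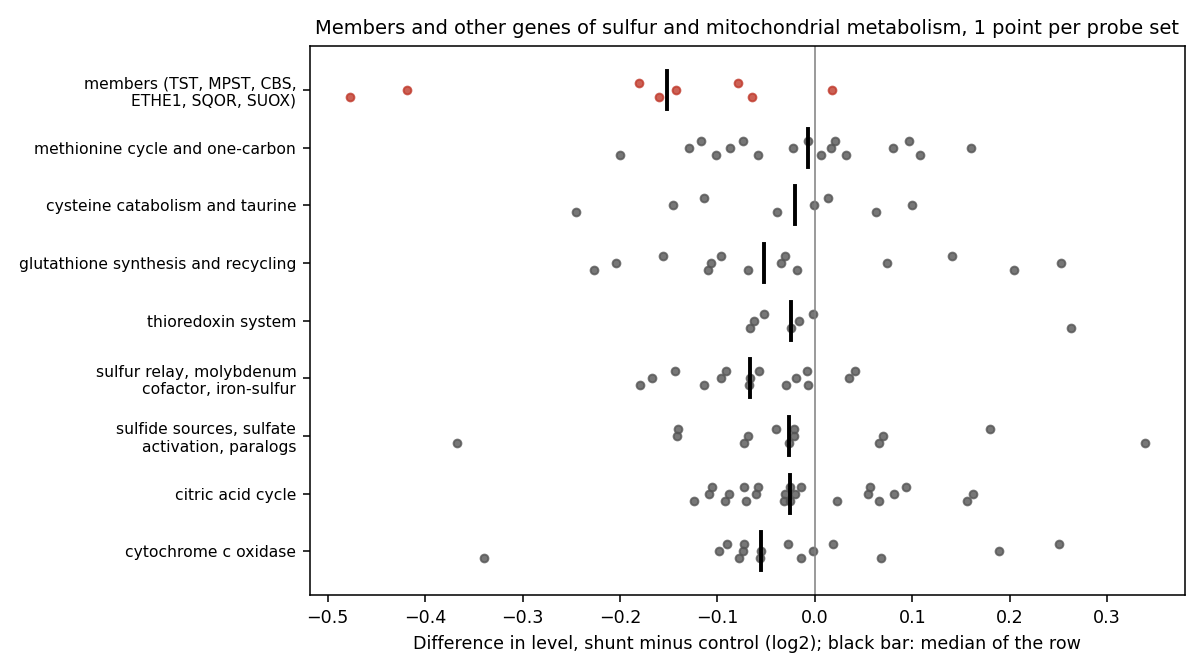
Difference in level, shunt minus control (log2, x axis), of the 8 member probe sets (top row) and of the 112 probe sets of the 8 other lists, 1 point per probe set, with the median of each row as a black bar. The member median lies at -0.15 and those of the other rows between -0.07 and -0.01.

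In whole lung, fewer cells of a type and less RNA per cell cannot be told apart. The lists of cell type markers are given by their levels and counts, and the ranges of shunt and control lambs overlapped in each list. Alveolar type 2 markers (8 of 10 genes measured) had a mean log2 level per lamb of 10.04 to 10.45 in shunt and 10.22 to 10.50 in control, and 4 of 11 probe sets were lower at an unadjusted p under 0.05, where 7.32% of all probe sets were. Type 1 markers (6 of 8) ran from 10.93 to 11.24 in shunt and 10.92 to 11.50 in control, with 3 of 8 probe sets lower. Airway markers (7 of 12) ran from 7.41 to 7.80 in shunt and 7.57 to 8.00 in control, with 2 of 9 lower. The airway list was not measured for SCGB1A1, SCGB3A1, MUC5B, FOXJ1 and DNAI1, so it lacks much of its secretory and ciliated part. Neutrophil markers (6 of 8) ran from 6.12 to 6.35 in shunt and 6.10 to 6.78 in control, with 3 of 8 lower, and mesothelial markers (3 of 6) from 7.43 to 7.93 in shunt and 7.58 to 8.15 in control, with 1 of 3 lower. Endothelial markers (11 of 12) ran the other way, from 8.54 to 8.81 in shunt and 8.44 to 8.62 in control, with 7 of 16 higher, where 6.42% of all probe sets were. Among all marker lists 1 probe set passed an adjusted p of 0.05, the dimmer probe set of PECAM1, an adhesion molecule of endothelial cells. This probe set averaged 11.29 ± 0.13 in shunt and 10.94 ± 0.11 in control (SD, n = 8 each), a difference of 0.35 ± 0.06 (SE, limma adjusted p = 0.0384). The brighter PECAM1 probe set, at percentile 99.1 of all probe sets, did not pass. With each array centred on its median, 2 endothelial probe sets passed and 0 of the other marker lists did. Smooth muscle markers (9 of 10) ran from 9.90 to 10.17 in shunt and 9.72 to 10.21 in control, with 4 of 11 higher. With each array centred on its median the counts were 2 lower for type 2, type 1, airway and neutrophil markers, 1 lower for mesothelial, 7 higher for endothelial and 6 higher for smooth muscle markers, against 4.35% of all probe sets lower and 9.09% higher.

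Shunt replicate 1, the shunt lamb with control-like TST, had the highest mean of its group for type 2 (10.45, against 10.30 or less in the other 7), type 1 (11.24, against 11.16 or less), airway (7.80, against 7.72 or less), mesothelial (7.93, against 7.87 or less) and neutrophil markers (6.35, against 6.33 or less). It had the lowest for endothelial (8.54, against 8.59 or more) and fibroblast markers (9.957, against 9.996 or more). For smooth muscle (10.05), macrophage (8.13), erythroid (7.62) and hepatocyte markers (6.897) it lay inside the range of the other 7. Fibroblast (8 of 8 genes), macrophage (6 of 9), erythroid (4 of 6) and hepatocyte markers (8 of 8), the last from a tissue rich in rhodanese, had median differences of 0.02, 0.06, -0.06 and -0.05. At an unadjusted p under 0.05 in limma, 1 of 14 fibroblast, 2 of 9 macrophage, 0 of 7 erythroid and 1 of 19 hepatocyte probe sets were higher. Lower were 0, 1, 0 and 1, against 6.42% of all probe sets higher and 7.32% lower. After centring 3 macrophage probe sets were higher and 0 lower. For the lists where shunt replicate 1 was highest or lowest, likeness to TST was also read within each group (n = 8, no test). In shunt and control lambs r was 0.64 and 0.39 for type 2, and 0.72 and -0.02 for type 1. It was 0.54 and 0.13 for airway, 0.60 and -0.05 for mesothelial, and 0.61 and 0.16 for neutrophil markers. Endothelial markers had -0.46 and 0.43, and fibroblast markers -0.58 and -0.75. The shunt values include shunt replicate 1. The part of any of these cell types in the TST difference was not tested.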

How the data were processed

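Values are on a log2 scale as the authors deposited them. The submitters' processing notes name RMA, with no version, which corrects background, equalises arrays by quantiles and summarises the probes of a probe set. Per the labels' protocols, each hybridization started from 1 ug of total RNA. Of 24128 probe sets, the manufacturer's 112 controls were dropped. Symbols came from the platform annotation. Groups were compared over all 24016 probe sets with limma 3.58.1 in R 4.3.3 (lmFit, eBayes, two-sided, without covariates, Benjamini-Hochberg at 0.05). Differences are shunt minus control, and intervals cover 95%. The fit was tested on simulated data. Members, gene lists and tests were chosen with earlier results of these data known. Named were all member probe sets, up to 4 per list of smallest p, and the 5 most and 3 least correlated with the brightest TST probe set. Precision is limited by the number of arrays. P-values of the fit set a difference against the spread between arrays, each taken as 1 lamb, and the other p-values come from exact permutations. No scan batch was known, so none was tested. Plots used matplotlib 3.10.9.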

Additional observations from a re-analysis of the deposited data

Results flagged for a closer look

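In 16 sets of 8 values (8 probe sets in both groups), 1 array stood far from the rest of its group, where chance gives about 1 in 20. It was shunt replicate 1 for the _s_at probe set of TST, the brightest, at 11.83 against 11.03 to 11.35 in the other 7 shunt lambs, with a gap of 0.602 of the group's range, past Dixon's 95% critical value for 8 samples.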

How the results depend on the processing

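The difference of the brightest TST probe set stayed negative in all alternatives, from -0.52 (array weights) to -0.45 (each array centred on its median), and passed an adjusted p of 0.05 in 6 of 7. It was lost with the replicate block (-0.48, adjusted p = 0.138). With 1 array left out it ran from -0.55 to -0.44 and passed in 3 of 16 fits. Whether the replicate numbers pair the lambs was not known. Same-numbered arrays correlated at -0.26 to 0.22 in their deviations, and 0 of 8 shunt arrays correlated best with the control of their number. With 8 such pairs these values cannot exclude a pairing. The replicate block called 0 probe sets higher and 0 lower in limma, with 1419 and 1483 at an unadjusted p under 0.05. The counts of 16 higher and 1 lower were 25 higher after centring, 36 and 9 with array weights, 6 and 2 with 1 probe set a gene, and 44 and 11 at an adjusted p of 0.10. Without the dimmest 30% of probe sets 3 were lower, and with a trended and robust prior 2. With 1 array left out they ran from 6 to 53 higher and from 0 to 22 lower, the most without shunt replicate 1. SQOR changed sign after cyclic loess (-0.012) and with array weights (-0.034), and ran from -0.044 to 0.072 with 1 array left out. Without the 2 arrays farthest from the TST median 0 of the 14 correlations passed an adjusted p, against 1 before, and 1 had an unadjusted p under 0.05. The 1 before was that of the pair of brighter TST probe sets in shunt lambs. The following signs are also from the fits without these 2 arrays. Those with CBS (-0.80), ETHE1 (0.11) and SQOR (-0.40) in shunt and with SUOX (0.084) in control lambs changed sign. After centring, that with the dim TST probe set in control lambs did (-0.016). The cause was not tested for any of these. The CBS and dim TST probe sets are dim, and signal over background is unknown there.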

Other observations

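MVD was found among the probe sets most like TST. Another mevalonate enzyme, MVK (r = 0.86 by its brightest probe set), was among those next in order. The genes of cholesterol synthesis were then set against the brightest TST probe set. This list was chosen after these values were seen and has no test. Of 20 genes 15 were measured, and MVD and MVK, which prompted the list, are counted among them. A positive r over the 16 arrays, after each group's mean was subtracted, was found for 18 of 22 probe sets. Over all other probe sets it was found for 11070 of 24015. The list's median was 0.46, against -0.03 over all probe sets. Examples were FDPS (r = 0.66), HMGCS1 (0.61 and 0.32) and MSMO1 (0.60), while the 3 probe sets of LSS lay at 0.46, 0.13 and -0.51 and the other 2 of MVK at -0.07 and -0.17. Without shunt replicate 1 the median was 0.12. It was 0.70 within the 8 shunt lambs and 0.04 within the 8 control lambs. The median within shunt lambs without shunt replicate 1 was not examined. All these values share the same arrays. The list's median difference, shunt minus control, was -0.05.

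ZNF524 kept its likeness to TST in both groups, with r = 0.94 in shunt and 0.95 in control lambs (n = 8 each) and 0.85 without shunt replicate 1. It was chosen after its values were seen, from the 10 next in order, and has no test.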
